A study of Arabidopsis thaliana with 2 samples.

Results

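The genes described here are 10 Arabidopsis thaliana genes that are known for their response to low oxygen and whose products have no settled function. Of these, 6 are HUP genes (hypoxia-responsive unknown protein), namely HUP32 (AT1G33055), HUP54 (AT4G27450), HUP26 (AT3G10020), HUP9 (AT5G10040), HUP6 (AT3G27220) and HUP40 (AT4G24110). The other 4 are AT4G33560, AT2G17850, AT3G29970 and AT4G39675, which belong to the core set of transcripts induced by low oxygen in many plant tissues. They were taken as listed loci whose probe set the array annotation pairs with exactly 1 gene, and all 10 had such a probe set, out of 13355 genes that did.

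Transcripts were measured on 2 Affymetrix arrays, 1 for hypoxic and 1 for control protoplasts, which are cells freed from their walls, here from leaf mesophyll. For hypoxia, cells were kept for 6 h under 25 mm of mannitol buffer, as 2 ml in a narrow tube. Control cells were kept for the same 6 h under only 0.6 mm of it, as 10 ml spread in a dish. Both came from 1 pool of cells made from the leaves of 36 plants, in equal cell numbers, and both stood under light of 80 microeinstein. The labels name no ecotype, transgene or mutation. The hypoxic cells thus differed from control in depth, cell density (5.0 times higher in the tube) and vessel together, and these cannot be told apart. With 1 array per group there was no replicate, so no test, error or p-value could be given, and every difference is a description of these 2 arrays, whose number limits the precision.

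In plants, low oxygen is read through the group VII ethylene response factors. Plant cysteine oxidases use oxygen to mark these transcription factors for breakdown, and when oxygen runs short the factors persist and switch on a small set of genes. That set holds enzymes of fermentation and sucrose use, regulators of the response itself, and a group of proteins of unknown function from which the HUP genes take their name. HUP transcripts are counted among the most general markers of low oxygen in this species, in shoots as in roots.

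On the arrays, 9 of the 10 genes differed by at least 2-fold, each of them higher in hypoxia. HUP40 alone lay within 2-fold. Of all 7972 measured genes, 13.0% were at least 2-fold higher. Genes past 2-fold in either direction were higher in 47.3% of cases. That share went to 17.7% with the arrays centred on the hybridisation controls. It was 53.1% with centring on 6 reference genes, and 85.4% with centring on 3 of them, which was added after seeing the data. The count of 9 stayed the same under all of these centrings. At least 8-fold higher were 7 of the 10, against 0.552% of all measured genes. The median log2 ratio of hypoxia over control was 4.24 over the 10 genes and -0.07 over all measured genes. A gene counted as measured when its intensity, scaled between the arrays, passed a floor of 165.7 on at least 1 array, the floor being the 40th percentile of all scaled values. Because 6 of the 10 were under the floor in control, their ratios are lower bounds, and the median of 4.24 is a bound as well. The direction of those 6 ratios followed from passing the floor in hypoxia alone. Of the 7 genes at least 8-fold higher, 4 were such lower bounds. Among all 937 genes above the floor in hypoxia alone, 1.28% were at least 8-fold higher. Of the 4 genes that passed the floor in both conditions, 3 were past 2-fold and higher, against 12.7% of all genes that did so.

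**Figure D1:**
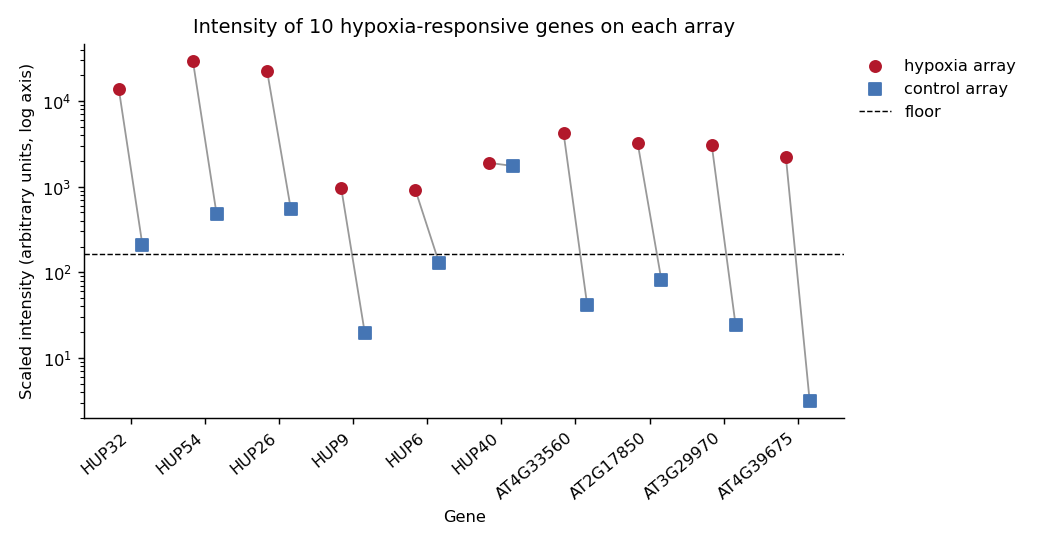
Intensity of each gene on the hypoxia array (circles) and the control array (squares) after scaling, on a log axis, with the floor of 165.7 as a dashed line and 1 array per group. All 10 genes are above the floor in hypoxia, and 4 of them, HUP32, HUP54, HUP26 and HUP40, are also above it in control.

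HUP32, HUP54 and HUP26 were above the floor on both arrays, so their ratios are measured on both sides. HUP32, a protein for which no function is assigned, had an intensity of 13712 in hypoxia, against 209.5 in control. That is 67.6-fold higher, although the control value lay only just above the floor. HUP54, which carries the YGL and LRDR motifs of a plant family named for induction by aluminium, had 29012 in hypoxia and 485 in control, a 61.8-fold difference. HUP26, another protein without an assigned function, had 22394 in hypoxia and 563.5 in control, a 41.0-fold difference. Of the 6648 genes above the floor on both arrays, 7 were at least 32-fold higher, or 0.105%, and these 3 HUP genes were among the 7.

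The log2 ratios of these 3 genes were 6.08, 5.95 and 5.36. HUP32 and HUP54 differed by 0.13, and HUP54 and HUP26 by 0.59. For scale, the ratio of a single probe set had an SD of 0.34 within a gene. This came from 74 genes with 2 probe sets, both above the floor in both conditions. A difference between 2 genes carries the spread of both probe sets, so its SD is larger than 0.34. Spread between replicate arrays is not part of that value. Ranked by ratio among all measured genes, HUP32, HUP54 and HUP26 stood 3rd, 4th and 5th. That ranking takes lower bounds as they are, so a gene under the floor in control may belong above them. Among the genes that passed the floor in hypoxia and in control alike, the one next above all 3 was AT1G54050, a small heat shock gene, with a log2 ratio of 6.62, and the one next below was AT1G71000, which encodes a DnaJ-type co-chaperone, at 5.33. No gene outside the 10 lay between them. This likeness in ratio is over 2 arrays.

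HUP40 had almost the same level in both conditions. Its intensity was 1869 in hypoxia and 1774 in control, a ratio of 1.09. By ratio it ranked 3247th of the 7972 measured genes. Its log2 ratio was 0.12, with AT4G31080 and AT1G63640 as its nearest neighbours in ratio, both also at 0.12. The sign of this small ratio depended on the scaling, at -0.38 when the arrays were centred on the hybridisation controls and at 0.73 when they were centred on 3 reference genes, and it was within 2-fold under all 11 alternatives. HUP40 has 1 probe set here, so no second probe set could be set beside it. For the same reason, the alternatives that changed the probe set rule could not move its ratio.

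HUP9 and HUP6 had the smallest bounds among the 9 higher genes. HUP9, of no assigned function, had an intensity of 958 in hypoxia, against 19.6 in control, and was at least 5.88-fold higher. HUP6, whose protein is predicted to carry kelch repeats, had 909.6 in hypoxia, against 131.7 in control, and was at least 5.58-fold higher. Of the 937 genes above the floor in hypoxia alone, 20.6% were higher by 2-fold or more and 1.28% by 8-fold or more. With the floor lowered to the 20th percentile, HUP6 was above it on both arrays and 7.13-fold higher, while HUP9 stayed a bound, at least 21.0-fold. With the floor raised to the 60th percentile, both came within 2-fold, at bounds of 1.44-fold for HUP9 and 1.37-fold for HUP6.

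**Figure D2:**
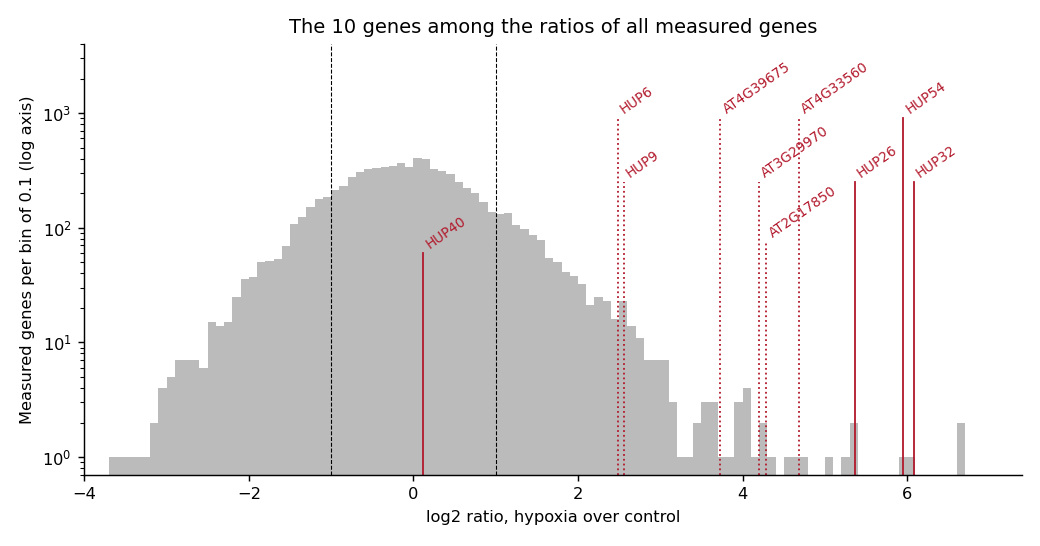
Histogram of the log2 ratio of hypoxia over control for the 7972 measured genes, with a log axis of counts, and the 10 genes as vertical lines, solid where the gene was above the floor on both arrays and dotted where the ratio is a lower bound; line heights carry no value. HUP40 stands in the bulk of genes at 0.12, and the other 9 stand between 2.48 and 6.08, past the dashed line of a 2-fold difference.

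The 4 genes outside the HUP group were all under the floor in control and above it in hypoxia. AT4G33560, of a small family of wound-responsive proteins, had an intensity of 4193 in hypoxia, against 41.6 in control, and was at least 25.7-fold higher. AT2G17850, whose protein has a rhodanese domain, a fold found in enzymes that transfer sulphur, had 3183 in hypoxia and 82.5 in control, at least 19.5-fold higher. AT3G29970, which encodes a B12D protein, a small plant protein type first described in barley grain, had 2987 in hypoxia and 24.9 in control, at least 18.3-fold higher. AT4G39675, of no assigned function, had 2164 in hypoxia and 3.2 in control, at least 13.3-fold higher.

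The bounds of these 4 genes were all above the ratio of HUP40, but no order can be given between them and HUP32, HUP54 or HUP26. Ranked by their bounds, the 4 genes stood 10th, 13th, 15th and 24th among measured genes. With the floor at the 20th percentile AT2G17850 was above it on both arrays and 39.9-fold higher. Under that floor the bound of AT4G33560 was a log2 ratio of 6.52, above the 6.08 of HUP32. With 16 added to each value in place of a floor, AT4G39675 had the highest log2 ratio of the 10, at 6.85. Each of the 4 was at least 2-fold higher under all 11 alternatives, and the lowest value over these was 1.71, for AT4G39675 with the floor at the 60th percentile. The alternatives that changed the probe set rule could not move a gene with 1 probe set, as each of these has.

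**Figure D3:**
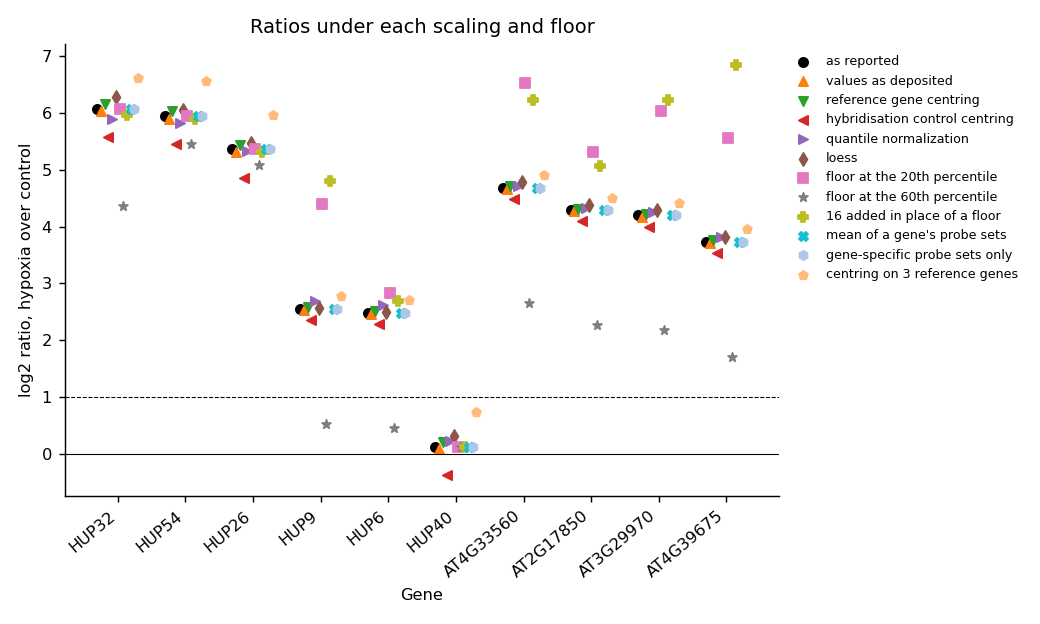
The log2 ratio of hypoxia over control of each gene as reported and under 11 other scalings, floors and probe set rules, with the dashed line at a 2-fold difference. Another scaling moved HUP32, HUP54 and HUP26 within 4.86 to 6.61, the 60th percentile floor took HUP32 to 4.37, and the genes under the floor in control moved mainly with the floor.

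From the annotation, the 10 genes were compared by chromosome, span and number of transcripts only. They lie on all 5 nuclear chromosomes, 4 of them on chromosome 4 and 3 on chromosome 3. In the RefSeq gene table of assembly TAIR10.1, their gene models span from 435 bases for HUP9 to 2693 bases for HUP6. That table lists 1 transcript for 7 of them, 2 for HUP26 and 3 each for AT2G17850 and AT3G29970. With 1 probe set per gene, the arrays do not tell transcripts of a gene apart.

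Genes next to the 10 on the chromosome had ratios on both sides of 0. Of 20 direct neighbours in the gene table, 11 had a single-gene probe set and 8 were measured. Their median log2 ratio was 0.13, and 3 of the 8 were past 2-fold in either direction, against 27.5% of all measured genes. The highest was PORB beside HUP54, an enzyme of chlorophyll synthesis, with an intensity of 976 in hypoxia and 325 in control, a log2 ratio of 1.63. AT1G33050 beside HUP32 had 3093 in hypoxia and 1592 in control, just past 2-fold, and NAC014 on the other side, a transcription factor gene, had 487 and 539. AT4G39680, next to AT4G39675, had 1916 in hypoxia and 4122 in control, a log2 ratio of -1.06. PORB came within 2-fold with the 60th percentile floor, AT1G33050 without further scaling and with hybridisation control centring, and AT4G39680 with loess and with either centring on reference genes. Both neighbours of AT2G17850 lay below the floor, at no more than 75.1 in hypoxia and 11.5 in control.

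Related genes of the same protein families gave a mixed picture. These families were written down from general knowledge after the ratios had been seen, and no sequence comparison was made. Of the 10 measured family genes, 6 were at least 2-fold higher, against 13.0% of all measured genes. In the family of AT4G33560, each of the 3 measured wound-responsive genes was past 2-fold, on the higher side. AT4G10270, also known as WIP4 and itself a low-oxygen core gene, had 2632 in hypoxia and 3.4 in control, at least 16.1-fold higher. AT4G05070 had 10399 in hypoxia and 1599.7 in control, 6.71-fold higher, and AT4G28240 had 1427 and 301, 4.90-fold higher.

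In the family of HUP54, 3 of 4 related genes were at least 2-fold higher, all by less than HUP54 itself. AT3G15450, a gene that sugar starvation induces, had 35067 in hypoxia and 7998 in control, 4.53-fold higher. AILP1 and AT5G43830 were 2.09-fold and 2.03-fold higher, and both came within 2-fold with hybridisation control centring and with quantile normalization, AILP1 also with loess and AT5G43830 also without further scaling. AT3G22850 had 1268 in hypoxia and 1518 in control.

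For AT3G29970, HUP6 and AT2G17850, 1 related gene each was measured, and all 3 lay within 2-fold. No relatives were listed for the other 5 genes. The B12D gene AT3G48140 had 44167 in hypoxia and 38675 in control, the kelch repeat gene AT1G51540 had 1389 and 1239, and the rhodanese gene STR18 had 261 and 256. The log2 ratios of these 3 genes were 0.24, 0.21 and 0.08, and all 3 were below 0 with hybridisation control centring, as were AT3G48140 and STR18 with quantile normalization and with loess. AT2G21045, another rhodanese gene, was under the floor on both arrays.

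**Figure D4:**
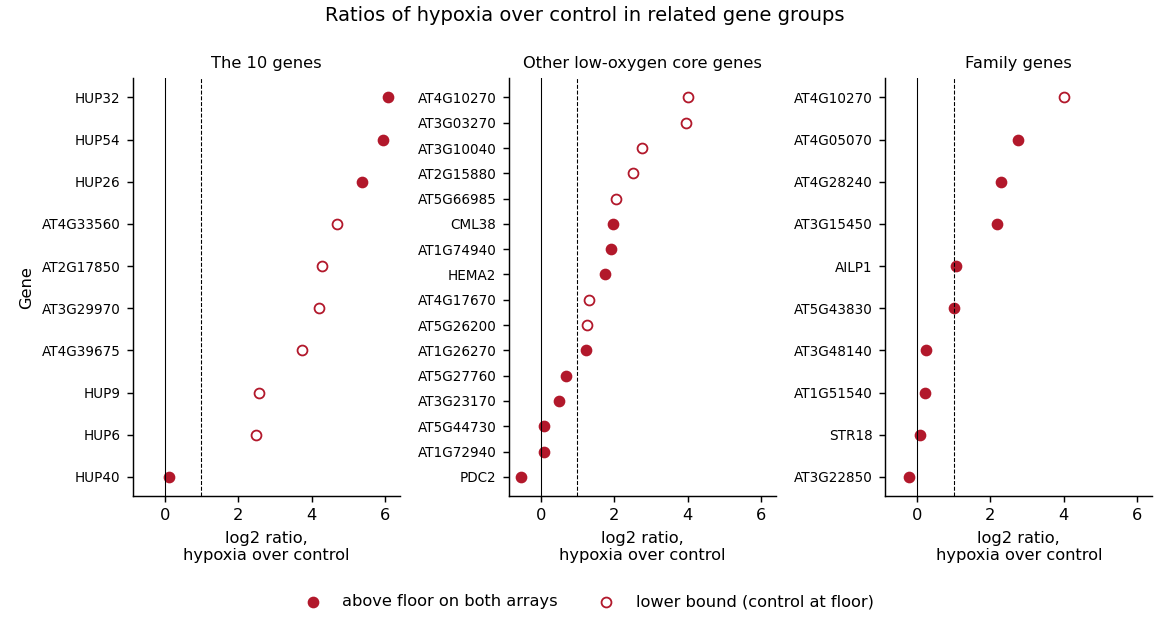
The log2 ratio of hypoxia over control for the 10 genes, the 16 measured other genes of the low-oxygen core and the 10 measured family genes, with filled points above the floor on both arrays, open points for lower bounds and a dashed line at a 2-fold difference. At least 2-fold higher are 9 of the 10 genes, 11 of the 16 core genes and 6 of the 10 family genes. Of all measured genes, 13.0% are. AT4G10270 stands in both the core and the family group.

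The rest of the low-oxygen core held genes with large ratios and genes with ratios near 0. Of 48 other listed genes, 19 had a single-gene probe set and 16 were measured. Past 2-fold and higher were 11 of the 16, against 13.0% of all measured genes. The other 5 lay within 2-fold. The median log2 ratio was 1.53, which is a lower bound because 7 of the 16 were under the floor in control. Of the 11, 7 passed the floor in hypoxia alone, which fixed their direction, and no other core gene did so. Of all genes above the floor in hypoxia alone, 20.6% were past 2-fold. Of the 9 core genes that passed it in both conditions, 4 were past 2-fold and higher (HEMA2, AT1G26270, AT1G74940 and CML38), against 12.7% of all such genes. The median over the 9 was 0.68. Among the 4, AT1G26270 came within 2-fold with hybridisation control centring, and AT1G74940 with the 60th percentile floor. At least 8-fold higher were 2 of the 16, AT4G10270 and AT3G03270, against 0.552% of all measured genes. Both were under the floor in control, and 1.28% of all genes above the floor in hypoxia alone were at least 8-fold higher. AT3G03270, named HRU1 and related to universal stress proteins, had 2524 in hypoxia and 87.4 in control, at least 15.5-fold higher.

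Regulators and enzymes of the core stood at different points. AT3G10040, or HRA1, a transcription factor gene that damps the response, had 1099 in hypoxia and 26.3 in control, at least 6.74-fold higher. CML38, a calmodulin-like calcium sensor, was 3.93-fold higher, and HEMA2, an enzyme of the tetrapyrrole pathway, 3.36-fold higher. PDC2, a pyruvate decarboxylase of fermentation, had 12106 in hypoxia and 18046 in control, a log2 ratio of -0.53 that went to -1.03 with hybridisation control centring and to 0.08 with 3 reference genes. AT5G27760, of the HIG1 domain family of mitochondrial proteins, had 0.68. HRA1 lies 2 genes from HUP26 on chromosome 3, and the gene between them, AT3G10030, had 1514 in hypoxia and 1139 in control, a log2 ratio of 0.46. ADH1 and PDC1, the markers with which the study checked its treatment, were not analysed here.

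Markers of the labelled cell type were present on both arrays and moved with the condition. All 6 mesophyll markers with a single-gene probe set, out of 12 listed, were above the floor on both arrays. Of these, 4 were at least 2-fold higher in hypoxia, though within 2-fold with hybridisation control centring. LHCB4.2, one of the 4, also came within 2-fold without further scaling and with quantile normalization. RCA and LHCB4.1, within 2-fold as reported, were past it with centring on 3 reference genes. The summed intensity of the 6 mesophyll markers was 142741 in hypoxia and 76533 in control. Of other leaf cell types, the 2 guard cell markers summed to 503 in hypoxia and 328 in control, where one of them was under the floor. The phloem marker SWEET11, the only 1 of 6 with a single-gene probe set, had 1020.2 in hypoxia and 212 in control. Of 6 epidermis markers, 0 had a single-gene probe set. The part of these differences in the ratios of the 10 genes was not tested. In bulk samples, fewer cells of a type and less RNA per cell cannot be told apart.

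Low intensities differed between the arrays. The lower quartile of probe sets was 87.9 in hypoxia and 51.8 in control, and 62.2% of probe sets were above the floor in hypoxia, against 57.8% in control. The control values of HUP9, HUP6 and the 4 genes outside the HUP group lay under the floor. Those of HUP6 (131.7) and AT2G17850 (82.5) were above the lower quartile in control, and the others were below it. For these genes the bounds, and not the deposited values, carry the comparison.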

How the data were processed

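The deposited table held intensities per probe set, not logged; GCOS 1.0 is named per the submitters' processing notes, while its settings and the genome build are not given in the sources used here. The authors had brought both arrays to one level: leaving out 2% of probe sets at either end, their means were both 1500.1. For the ratios, the 22746 probe sets other than controls were scaled so that both arrays had the same median (the geometric mean of the 2), values under the 40th percentile were raised to it, and log2 ratios of hypoxia over control were taken (Python 3.11.15, pandas 2.3.3). A gene with several probe sets was represented by the brightest on the log2 scale. Intensities are printed as deposited. Annotation paired 13513 probe sets with 1 gene. HUP names and protein families come from general knowledge. The processing was tested on simulated data with 200 changed genes. All of these were well above the floor in control, so the test does not cover genes under it.

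The rule for names took all 10 genes, the measured other core genes, direct neighbours and the genes nearest in ratio. The genes and lists were chosen with earlier results of these data known. Protein relatives and promoter motifs, which needed sequences, were not analysed here. Alternatives changed the scaling, floor and probe set rule; 1, centring on SAND, TIP41 and UBC21, was added after seeing the data.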

Additional observations from a re-analysis of the deposited data

How the results depend on the processing

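Of the 10 genes, 9 were at least 2-fold higher in hypoxia under 10 of 11 alternatives, and 7 under a 60th percentile floor, where HUP9 and HUP6 came within 2-fold. The alternatives that changed the probe set rule could not move the 10 genes, each of which has 1 probe set. At least 8-fold higher were 7 to 8 genes, except 3 with that floor. Their median log2 ratio went from 4.05 to 4.46 over the scalings, to 5.46 under a 20th percentile floor, 2.22 under a 60th percentile floor, and 5.61 with 16 added in place of a floor. For the other core genes, the count of 11 went to 5 and the median of 1.53 to 0.59 under the 60th percentile floor. With hybridisation control centring the count went to 9 and the median to 1.16. That count was 13 of 18 measured core genes with 3 reference genes, and 12 of 19 under the 20th percentile floor. A higher floor lowers bounds by construction. The share of all measured genes at least 2-fold higher was 6.67% with hybridisation control centring (528 genes), 20.2% under the 20th percentile floor (2273 genes, against 1037 as reported), 12.1% under the 60th (632 genes), and 25.2% (2059 genes) with 3 reference genes. With the same centrings all measured genes had medians of -0.55 and 0.41. All values reuse the same 2 arrays. Low signal over background limits 6 of the 10 genes to bounds. Other cut-offs for protein relatives were not run, because no protein sequences were at hand. No paired analysis was possible because each group had 1 array.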
